A study of Mus musculus with 6 samples.

Results

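This account covers 10 endothelial and angiogenesis genes in tumors of mice that received DMHCA, compared with tumors of control mice. The genes were taken by symbol from the 55385 genes of each deposited table, and all 10 passed the filter on low counts that left 19427 genes for testing. Pecam1, Cdh5, Emcn and Vwf are markers of vessel-lining cells, Kdr and Flt1 are receptors for vascular endothelial growth factors (VEGFs), Tek and Tie1 are the Tie receptors, and Angpt1 and Angpt2 are angiopoietin ligands. The tumors came from female NeuT/ATTAC mice, which carry a constitutively active rat ErbB2[V664E] gene under the MMTV promoter and a fusion of FKBPv with caspase-8 under the FABP4 promoter. Tumor RNA came from 3 control mice and 3 mice on DMHCA, all given the dimerizer AP20187 at 0.4 mg/kg, 3 times per week, from 6 weeks of age. AP20187 activates the caspase in fat cells, so that part of the mammary fat is replaced by fibrotic tissue. From staining and imaging, the study reported less fibrosis and collagen in tumors of mice on DMHCA than in those of controls. DMHCA is a steroid that activates LXR, a nuclear receptor for oxysterols, and it was mixed into the treated mice's diet at 0.05% (w/w) from 8 weeks of age, a dose of 100 mg/kg. The treatment label of the controls can be read as AP20187 with vehicle or as vehicle alone, and the tissue label names fibrotic mammary gland, so what is said here of tumors and of AP20187 follows the study's text. The FABP4 promoter is best known from fat cells but is also active in some capillary endothelium and macrophages.

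New vessels sprout when VEGF-A, released by tumor or stromal cells, engages Kdr (VEGFR2) on endothelial cells, while Flt1 (VEGFR1) binds the same ligand more tightly and signals weakly, which makes it a decoy in part. Angpt1, made mainly by mural and other mesenchymal cells, activates Tek (Tie2) and keeps vessels quiet and tightly joined. Angpt2, made by endothelial cells themselves, can block Tek and is known for loosening vessels that then respond to VEGF. In mammary tumors, as in other solid tumors, both systems act together in the supply of blood.

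RefSeq sequence before the start site was matched for 5 of the 10 genes (Emcn, Kdr, Flt1, Tek and Tie1). The windows of Kdr, Flt1 and Tek are printed because these receptors receive the VEGF and angiopoietin signals whose genes are described here. All are on GRCm38.p6, 5′ to 3′ on the strand of the gene, and capitals mark GGAA or its reverse complement TTCC, the core letters bound by ETS factors such as Erg.
Kdr, chr5:75978459-75978705, minus strand, 247 bases: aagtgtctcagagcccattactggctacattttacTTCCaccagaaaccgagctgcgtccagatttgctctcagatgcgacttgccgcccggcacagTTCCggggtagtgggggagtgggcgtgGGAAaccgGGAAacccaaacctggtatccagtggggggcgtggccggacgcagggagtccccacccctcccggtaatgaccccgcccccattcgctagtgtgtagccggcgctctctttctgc
Flt1, chr5:147726012-147726261, minus strand, 250 bases: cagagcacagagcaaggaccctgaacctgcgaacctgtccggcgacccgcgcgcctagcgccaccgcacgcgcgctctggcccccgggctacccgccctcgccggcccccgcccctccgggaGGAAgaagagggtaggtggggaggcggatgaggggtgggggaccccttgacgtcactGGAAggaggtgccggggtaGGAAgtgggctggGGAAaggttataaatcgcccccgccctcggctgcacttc
Tek, chr4:94739039-94739288, plus strand, 250 bases: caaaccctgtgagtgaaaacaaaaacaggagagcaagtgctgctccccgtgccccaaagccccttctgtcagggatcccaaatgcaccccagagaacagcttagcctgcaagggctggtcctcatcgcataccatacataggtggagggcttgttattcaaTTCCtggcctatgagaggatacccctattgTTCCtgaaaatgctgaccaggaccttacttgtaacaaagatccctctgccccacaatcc
The windows of Kdr and Flt1 each held 4 matches to GGAA on either strand, and the window of Tek held 2. Over 32851 RefSeq windows of 250 bases, 93.4% held at least 1 match, so the presence of the core does not set these genes apart. The longer AGGAAG, which contains GGAA, was found in the windows of Emcn, Flt1 and Tie1, against 29.5% of all windows. Of the 250 bases of the Tie1 window, 212 lie inside the gene as GENCODE draws it, as do 11 of the Emcn window. A perfect DR4 repeat, the element read by LXR with its partner, was on either strand of 0 of the 5 windows and of 0.0152% of all windows. These matches describe letters only.

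The 6 libraries held 46358654 to 63420620 expected counts each. DMHCA libraries 1 and 3 differed far less from each other than other libraries of the same group did. Their biological coefficient of variation was 0.0327, against 0.376 to 0.579 in the other 5 pairs, and their counts were therefore summed to 1 sample. The comparison thus had 3 control samples and 2 DMHCA samples, named below as the merged DMHCA sample and DMHCA sample 2. Control sample 3 stood apart in markers of other cells. Its summed level over 6 adipocyte genes was 1218 TPM (a level per length, scaled to a fixed sum), against 296 and 133 TPM in controls 1 and 2 and 71.2 and 77.8 TPM with DMHCA. Its 3 B cell genes summed to 217 TPM, against 25.1 and 0.83 TPM in controls 1 and 2 and 1.71 and 1.66 TPM with DMHCA. The 4 epithelial genes summed to 2495 to 3547 TPM in controls and to 4061 to 4381 TPM with DMHCA, without overlap. One by one, 2 were higher and 2 lower on average (median log2 fold change 0.16), and only 1 lay apart. The 5 red blood cell genes summed to 3664 to 5457 TPM in controls and to 2167 to 3116 TPM with DMHCA, also without overlap. Each of the 5 was lower on average and 4 lay apart, where 12.2% of all genes were lower without overlap. Hba-a2, a globin gene, had an adjusted p of 0.0326 by DESeq2 on the 5 samples. Hbb-bt, Hbb-bs, Hba-a1 and Alas2 had 0.448, 0.541, 0.688 and 0.756 in that fit, and edgeR called 0 of the 5. The part of these cells in the vascular genes was not tested. The 23 other endothelial genes summed to between 135 and 221 TPM over all samples. Fabp4, whose promoter drives the caspase, was at 91.1, 80.0 and 456 CPM in controls 1 to 3 and at 37.1 and 33 CPM with DMHCA. CPM stands here for counts scaled to library size after TMM normalisation, a scale that compares samples but not genes.

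None of the 10 genes passed an adjusted p of 0.05 in edgeR's quasi-likelihood test, adjusted by Benjamini-Hochberg over all genes tested, and their adjusted p-values ran from 0.644 to 0.979. The background was 0 of 19427 genes, or 0.0%, so the test at this size called nothing in either direction. At an unadjusted p under 0.05 the genes were Cdh5, with a higher level under DMHCA, and Angpt1, with a lower level, or 2 of 10 against 7.61% of all genes (1478 genes, 3.53% higher and 4.08% lower). The mean was higher with DMHCA for 6 genes and lower for 4, and 48.0% of all genes were higher. The median log2 fold change of the 10 genes was 0.19, and that of all genes was -0.03. Cdh5, Tie1 and Angpt2 lay higher in both DMHCA samples than in every control, where 13.8% of all genes did so. Angpt1 alone lay lower without overlap, where 12.2% of all genes did so. DESeq2, the study's own tool, gave 1 gene of the 10 on the 6 libraries as separate samples, Angpt1, with an adjusted p of 0.00762, and 846 of 21283 genes (3.98%, with 1.29% higher and 2.68% lower). DESeq2 on the 5 samples gave 0 of the 10 and 244 of 20055 genes (1.22%, with 0.249% higher and 0.967% lower). In whole tumor RNA, a change in the number of endothelial cells and a change in RNA per endothelial cell cannot be told apart.

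**Figure D1:**
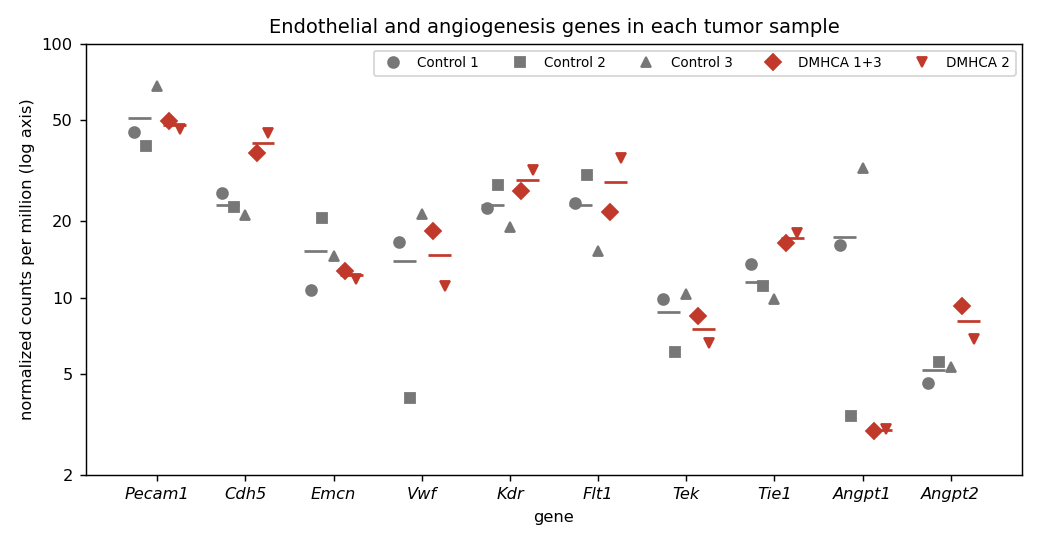
TMM-normalized CPM (log axis) of the 10 genes in each sample, with grey markers for the 3 control samples, red markers for the 2 DMHCA samples and short lines for group means. The DMHCA markers lie above all control markers for Cdh5, Tie1 and Angpt2 and below them for Angpt1, and the groups overlap for the other 6 genes.

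Cdh5 encodes VE-cadherin, the adhesion protein of the junctions between endothelial cells, and lies on chr8:104101625-104144511 (GRCm38, plus strand; all coordinates of whole genes are on this build). Its level was 25.8, 22.7 and 21.1 CPM in controls 1, 2 and 3 and 37.1 and 44.5 CPM in the merged DMHCA sample and DMHCA sample 2. The controls lay close together and both DMHCA samples lay above them. The means were 23.2 ± 2.38 CPM (SD, n = 3) and 40.8 ± 5.23 CPM (SD, n = 2), a fold change of 1.76 with a 95% interval from 1.16 to 2.67. The unadjusted p was 0.016, rank 374 of all genes, and edgeR's adjusted p was 0.644. With any single library left out the log2 fold change, 0.81 with all samples, stayed between 0.72 and 0.89. The unadjusted p was 0.0949 without DMHCA sample 2, a fit that has only 1 treated sample and takes its spread from the controls.

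Pecam1 (CD31, chr11:106654217-106750628, minus strand) encodes another junction protein of endothelium, also present on platelets and some leukocytes. It was at 45.0, 39.7 and 68.5 CPM in the controls and at 49.8 and 46.3 CPM with DMHCA. The DMHCA values lay within the range of the controls, which was widened by control 3. The log2 fold change was -0.09 (SE 0.31, 95% interval -0.82 to 0.65), and it was 0.18 without control 3 and 0.12 on the log2(TPM + 0.1) scale, where the median of all genes was 0.16. Emcn (endomucin, chr3:137341067-137432185, plus strand), a sialomucin of capillary and venous endothelium, was at 10.7, 20.7 and 14.6 CPM in the controls and at 12.8 and 11.8 CPM with DMHCA. Its groups overlapped, with a log2 fold change of -0.32 (SE 0.39, 95% interval -1.24 to 0.61). Vwf (chr6:125546774-125686679, plus strand), the clotting factor stored in endothelial granules and platelets, varied most among these markers, from 4.00 CPM in control 2 to 16.6 and 21.3 CPM in controls 1 and 3. The DMHCA samples, at 18.3 and 11.1 CPM, fell inside that range, and the log2 fold change was 0.07 (SE 0.68, 95% interval -1.56 to 1.71). Without control 2 it was -0.37. With intervals this wide, a lack of change was not shown for Pecam1, Emcn or Vwf. The summed level of 5 platelet genes was 22.5 to 53.5 TPM in controls and 18.1 to 35.1 TPM with DMHCA, and its part in Pecam1 and Vwf was not tested.

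Kdr and Flt1, the VEGF receptors, both had a higher mean with DMHCA, with overlapping groups. Kdr (chr5:75932827-75978458, minus strand) was at 22.5, 27.8 and 19.1 CPM in the controls and at 26.3 and 31.8 CPM with DMHCA. Flt1 (chr5:147561604-147726011, minus strand) was at 23.6, 30.4 and 15.3 CPM in the controls and at 21.7 and 35.4 CPM with DMHCA. For both genes control 3 was lowest and DMHCA sample 2 highest. The log2 fold changes were 0.33 for Kdr (SE 0.29, 95% interval -0.37 to 1.02) and 0.30 for Flt1 (SE 0.39, 95% interval -0.63 to 1.24). That of Flt1 was -0.05 without DMHCA sample 2. The ratio of Flt1 to Kdr, in TPM, was 0.943, 1.01 and 0.729 in the controls and 0.763 and 1.0 with DMHCA, and an exact two-sided permutation test of the log2 ratios gave p = 1.0. In TPM, which rests on an estimated length, RNA of the decoy receptor was thus at 0.729 to 1.01 times that of the signalling receptor.

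Of the Tie receptors, Tie1 had a higher and Tek a lower mean with DMHCA, and neither passed an unadjusted p of 0.05 in the edgeR test. Tie1 (chr4:118471191-118490061, minus strand) binds no angiopoietin directly and pairs with Tek. It was at 13.5, 11.1 and 9.89 CPM in the controls and at 16.5 and 18.0 CPM with DMHCA. The groups did not overlap, and the fold change was 1.5 (95% interval 0.882 to 2.55), an interval that includes no change. Tek (chr4:94739289-94874976, plus strand), which binds the angiopoietins, was at 9.89, 6.12 and 10.3 CPM in the controls and at 8.44 and 6.64 CPM with DMHCA. The groups overlapped, with a log2 fold change of -0.22 (SE 0.42, 95% interval -1.22 to 0.79). The ratio of Tie1 to Tek was 1.53, 2.03 and 1.02 in the controls and 2.18 and 3.0 with DMHCA, in TPM. Both DMHCA ratios lay above every control, by 1.74-fold between geometric means. An exact two-sided permutation test gave p = 0.2, which is the smallest that 3 against 2 samples allow, and 0.52 after Benjamini-Hochberg adjustment over the 13 ratios computed.

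**Figure D2:**
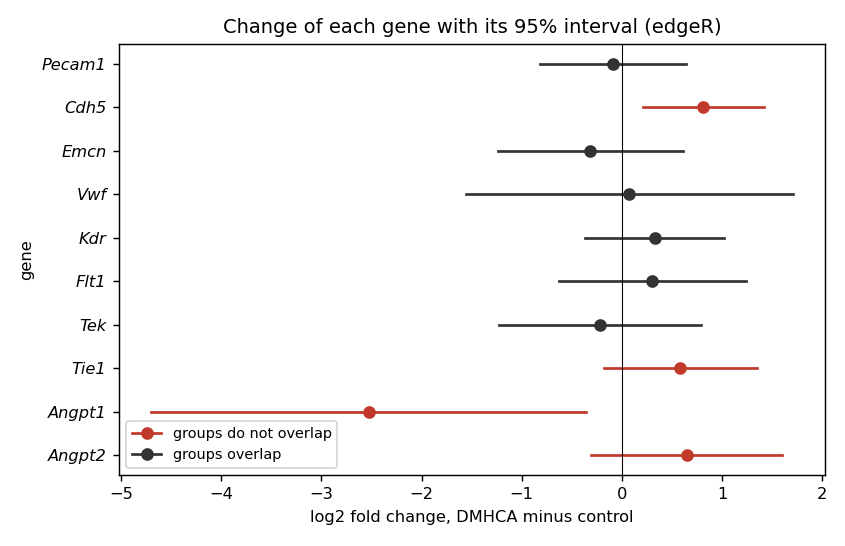
The log2 fold change (DMHCA minus control) of each gene by edgeR, with points for the estimates and lines for 95% intervals, in red where the 2 groups did not overlap. The intervals of Cdh5 and Angpt1 leave out 0 before adjustment, and the estimates of Pecam1, Vwf and Flt1 change sign under another scale or without a single sample.

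Angpt1 showed the largest fold change of the 10 genes in either direction. It lies on chr15:42424723-42676977 (minus strand) and was at 16.1, 3.40 and 32.4 CPM in controls 1, 2 and 3 and at 2.98 and 3.03 CPM in the DMHCA samples. Both DMHCA samples lay below every control, but control 2 lay close to them and controls 1 and 3 far above. The means were 17.3 ± 14.5 CPM (SD, n = 3) and 3.0 ± 0.0369 CPM (SD, n = 2). The log2 fold change was -2.53 (SE 0.91, 95% interval -4.70 to -0.36), with an unadjusted p of 0.0288 and an adjusted p of 0.644 by edgeR. It was -1.71 without control 3, with an unadjusted p of 0.0617, and -3.02 without control 2. Without control 1 it was -2.60, about as large, with an unadjusted p of 0.0528. Without DMHCA sample 2 it was -2.49 with an unadjusted p of 0.102, but that leaves 1 treated sample, assumed to vary like the controls. By limma it was -1.75 on log2(TPM + 0.1), with an unadjusted p of 0.129, and -1.34 on log2(TPM + 1), with an unadjusted p of 0.137. Its sign was the same under every alternative run. An exon of Gm17473 on the opposite strand overlaps Angpt1, and whether strand was used in counting is not given in the sources used here. That gene held at most 20.01 expected counts in a library, against 151.68 to 1612.99 for Angpt1.

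Angpt2 (chr8:18690263-18741562, minus strand) was at 4.61, 5.57 and 5.31 CPM in the controls and at 9.28 and 6.88 CPM with DMHCA. The controls were tight and both DMHCA samples lay above them. The means were 5.16 ± 0.494 CPM (SD, n = 3) and 8.08 ± 1.70 CPM (SD, n = 2), and the fold change was 1.57 (95% interval 0.807 to 3.04), with an unadjusted p of 0.152. The balance of the ligands, Angpt2 to Angpt1 in TPM, was 0.344, 2.47 and 0.264 in controls 1, 2 and 3 and 4.36 and 3.11 with DMHCA. Angpt1 exceeded Angpt2 in controls 1 and 3, and Angpt2 exceeded Angpt1 in control 2 and both DMHCA samples. The geometric mean ratio was 6.06-fold higher with DMHCA, a log2 difference of 2.60 that was 2.0 without control 3 and 3.61 without control 2, and the exact two-sided permutation p was 0.2, the smallest possible here.

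Among the controls, Angpt1 and the summed adipocyte, B cell, T cell and fibroblast markers were each highest in control 3 and lowest in control 2. The sums of macrophage, platelet, lymphatic, venular and the 23 other endothelial genes had that order too. Those of epithelial, red blood cell, skeletal muscle and mural cell genes did not. From control 2 to the DMHCA samples Angpt1 differed little. From controls 3 and 1 to control 2, where Angpt1 was 32.4, 16.1 and 3.40 CPM, the adipocyte gene Adipoq was at 57.6, 13.2 and 5.18 CPM. With DMHCA, Adipoq was at 0.616 and 0.997 CPM. All 6 adipocyte genes lay lower with DMHCA without overlap, where 12.2% of all genes did so. Their median log2 fold change was -4.80 (-3.38 without control 3). Of the 6, Lep was at 0 in a DMHCA library, so its place in the count and in the median is no support. The 3 B cell genes were lower on average in 3 of 3, the 4 T cell genes in 4 of 4 and the 5 fibroblast genes in 4 of 5. Summed levels were 0.83 to 217 TPM against 1.66 to 1.71 TPM for B cells, 0.88 to 139 TPM against 2.39 to 4.89 TPM for T cells, and 194 to 866 TPM against 365 to 413 TPM for fibroblasts, controls first. No B cell, T cell or fibroblast gene of the lists was at 0 in any library. The B cell, T cell and fibroblast sums all overlapped between groups, and each was higher in the DMHCA samples than in control 2. The part of these cells in the level of Angpt1 was not tested.

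**Figure D3:**
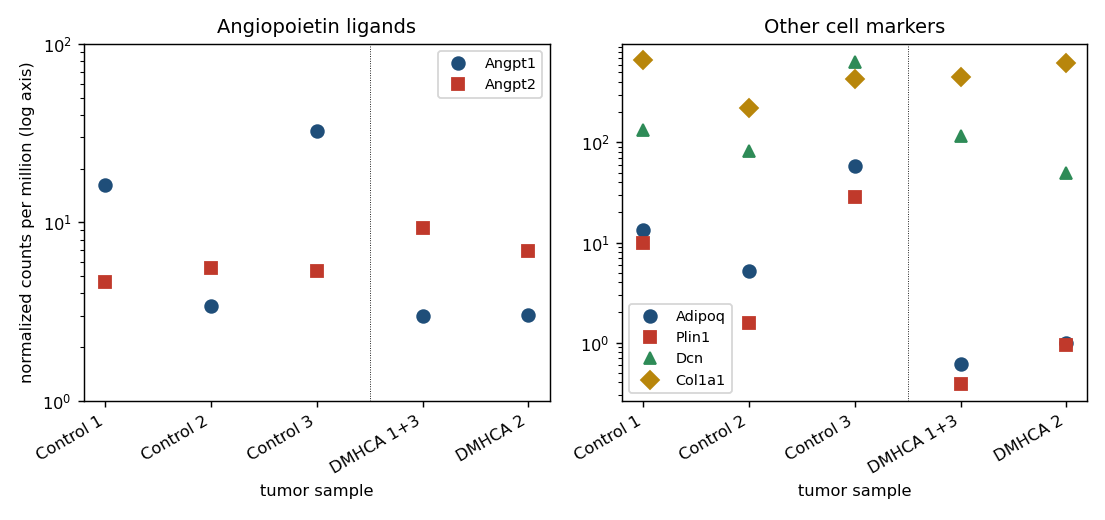
TMM-normalized CPM (log axes) of Angpt1 and Angpt2 (left) and of adipocyte (Adipoq, Plin1) and fibroblast (Dcn, Col1a1) markers (right) in each sample, with a dotted line between control and DMHCA samples. Angpt1 is highest in control 3 at 32.4, as are Adipoq, Plin1 and Dcn but not Col1a1, and near 3 in both DMHCA samples, while Angpt2 stays between 4.61 and 9.28.

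The 10 genes did not follow a single pattern over the samples. Control 3 was the highest sample for Pecam1, Vwf, Tek and Angpt1 and the lowest for Cdh5, Kdr, Flt1 and Tie1. DMHCA sample 2 was the highest for the same 4 genes Cdh5, Kdr, Flt1 and Tie1 and the lowest for 0 genes. Control 2 was lowest for Pecam1, Vwf and Tek and highest for Emcn. Against the geometric mean of the 23 other endothelial genes of the same tumor, in TPM, Cdh5 stood at 2.17, 1.98 and 1.41 in the controls and at 2.56 and 3.39 with DMHCA. Tie1 stood at 1.09, 0.931 and 0.643 against 1.11 and 1.34, and Angpt1 at 1.25, 0.273 and 2.02 against 0.191 and 0.216. Relative to other endothelial genes, Cdh5 and Tie1 were thus higher and Angpt1 lower without overlap, each with an exact two-sided permutation p of 0.2, the smallest possible. Angpt2 overlapped on this scale, at 0.431, 0.674 and 0.533 against 0.836 and 0.671.

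**Figure D4:**
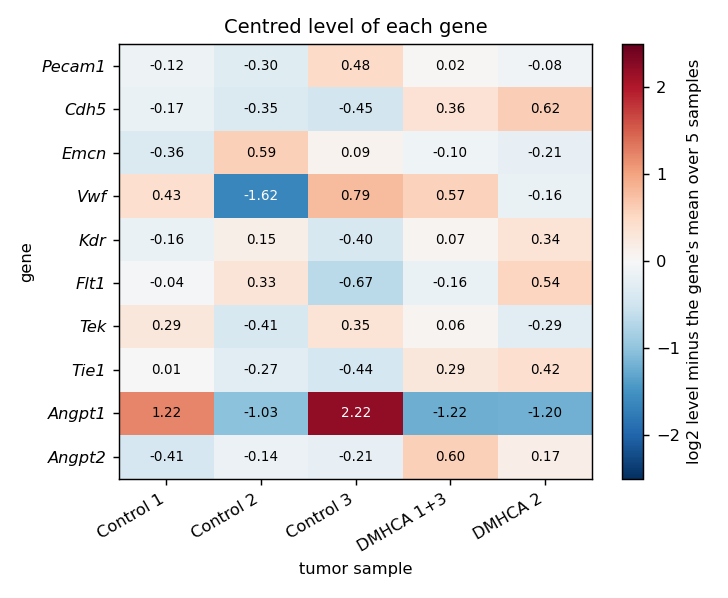
Log2 level of each gene (rows) in each sample (columns) minus the gene's mean over the 5 samples, with the value in each cell and red for levels above the mean. Angpt1 runs from 2.22 in control 3 to -1.22 in the merged DMHCA sample, while Tie1 stays between -0.44 and 0.42.

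Per length, Pecam1 was the most abundant of the 10 genes, at 22.1 TPM on average over the 5 samples (13.9 to 30.4 TPM). It was followed by Emcn (13.2 TPM), Vwf (12 TPM), Cdh5 (10.8 TPM), Kdr (5.87 TPM), Flt1 (5.30 TPM) and Tie1 (4.74 TPM). The ligands and Tek closed the order, with Angpt1 at 3.78 TPM, Angpt2 at 2.91 TPM and Tek at 2.55 TPM. Ranges over samples overlapped between every pair of neighbours in this order, so only distant steps stood beyond the spread, such as Pecam1 against Kdr (4.32 to 8.27 TPM). Pecam1 was above 71.1% and Tek above 34.8% of all genes tested. Among the controls alone, the highest sample exceeded the lowest by 1.21-fold for Angpt2 and 1.22-fold for Cdh5, but by 9.53-fold for Angpt1 and 5.32-fold for Vwf. A smaller range than that of Angpt1 was found in 93.1% of genes.

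TPM rests on the transcript length that RSEM estimates for each library, and for some of the genes this length was unstable. For Vwf it was 2422, 891 and 1202 bases in the controls and 2386, 3057 and 2360 bases in DMHCA libraries 1, 2 and 3. The count of Vwf per base therefore moved differently from its count, and the log2 difference of Vwf relative to other endothelial genes was -0.85 in TPM and 0.26 in normalized counts. For Angpt2 the near-identical DMHCA libraries 1 and 3 differed by 803 bases (3560 and 2757), and for Flt1 by 395 bases (6187 and 6582). Flt1 makes a short, soluble form and a membrane form, and these gene-level tables do not separate them. The lengths of Kdr, Tie1, Angpt1 and Cdh5 varied by at most 1.58% of their mean.

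Other endothelial genes were as mixed as the 10. Of 23 further genes of this cell type, 13 were higher and 10 lower on average with DMHCA, with a median log2 fold change of 0.04 and 4 higher and 1 lower without overlap (17.4% and 4.35%, against 13.8% and 12.2% of all genes). Without control 3 the counts were 16 higher and 7 lower (median 0.19). The 4 without overlap on the higher side were Erg, Mmrn2, Adgrl4 and Adgrf5, at log2 fold changes of 0.21 to 0.43. Egfl7, a secreted factor of endothelium, was at 21.7, 22.0 and 30.7 CPM in the controls and at 17.5 and 15.1 CPM with DMHCA. Eng (endoglin), a TGF-beta coreceptor, was the only gene of the list at an unadjusted p under 0.05, by edgeR. It was at 28.1, 32.5 and 27.9 CPM in the controls, at 124.7 CPM in the merged DMHCA sample and at 31.7 CPM in DMHCA sample 2, inside the control range. Eng was thus high in a single tumor sample, and DESeq2 on the 6 libraries, where that sample counts as 2 libraries, gave an adjusted p of 0.0366, against 0.321 on the 5 samples. Cldn5, a tight junction protein, was at 4.54, 3.45 and 10.1 CPM in the controls and at 3.68 and 4.10 CPM with DMHCA. In TPM more genes lay on the higher side, with 20 of 23 above 0 on the log2(TPM + 0.1) scale, but the median of all genes moved to 0.16 on that scale and the median of these genes was 0.28.

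Of the 8 VEGF ligands and coreceptors, 4 were higher and 4 lower on average (median 0.10), and 0 had an unadjusted p under 0.05. Without control 3 the counts were 6 higher and 2 lower (median 0.28), and without control 2 they were 5 higher and 3 lower (median 0.21). Vegfa, the ligand of Kdr and Flt1, was at 78.3, 197.8 and 33.5 CPM in the controls and at 187 and 169 CPM with DMHCA. Control 2 alone was above the DMHCA samples. Pgf, which binds Flt1, was at 99.04, 319 and 25.3 CPM in the controls and at 85.6 and 70.4 CPM with DMHCA, also with the highest value in control 2. Vegfb, another ligand of Flt1, was at 15.3, 16.4 and 11.3 CPM against 25.3 and 19.9 CPM. Flt4 (VEGFR3), the receptor for Vegfc and Vegfd, was at 4.63, 3.90 and 2.89 CPM against 6.56 and 8.41 CPM. Vegfb and Flt4 lay higher without overlap (25.0% of the 8, against 13.8% of all genes), at log2 fold changes of 0.66 and 0.97. Vegfd was at 1.56, 1.89 and 4.46 CPM against 1.82 and 1.54 CPM.

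Tip cells lead a sprout, and Notch signalling holds back their neighbours. Of 12 genes of this group, 5 were higher and 7 lower on average with DMHCA (median -0.05), 3 of them at an unadjusted p under 0.05, where 7.61% of all genes were. Without control 2 the counts were 8 higher and 4 lower (median 0.36). Apln (apelin), a peptide of sprouting tips, was at 6.24, 3.93 and 5.75 CPM in the controls and at 17.4 and 19.8 CPM with DMHCA. The groups lay well apart, by 3.5-fold (95% interval 1.89 to 6.48), and with a library left out the log2 fold change stayed between 1.63 and 1.93. Apln ranked 32 among the 19427 genes by p, with an adjusted p of 0.644 by edgeR, 0.00126 by DESeq2 on the 5 samples and 9.12e-06 by DESeq2 on the 6 libraries. Esm1 (endocan), also of tip cells and induced by VEGF, was at 4.22, 8.71 and 3.08 CPM in the controls and at 17.9 and 11.5 CPM with DMHCA, and Dll4, the Notch ligand of tips, was at 6.62, 7.65 and 6.51 CPM against 13.6 and 8.78 CPM. Hey2, a Notch target of arterial cells, was lower without overlap, at 2.04, 1.80 and 3.26 CPM in the controls and 0.951 and 0.790 CPM with DMHCA. Adjusted p-values by edgeR were 0.644 for Esm1, 0.66 for Dll4 and 0.644 for Hey2, and DESeq2 on the 6 libraries gave 0.0341 for Esm1 and 0.0382 for Hey2. DESeq2 on the 5 samples gave 0.262 for Esm1 and 0.16 for Hey2, so neither passed once the near-identical libraries counted as 1 sample. Without control 3 the unadjusted p was 0.00376 for Apln, 0.0562 for Esm1 and 0.0793 for Hey2, at log2 fold changes of 1.86, 1.18 and -1.14. Jag1, a Notch ligand that works against Dll4 in sprouting, was at 21.1, 13.2 and 18.1 CPM in the controls and at 9.94 and 15.4 CPM with DMHCA.

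Of 9 inhibitors of angiogenesis, 8 were lower and 1 higher on average (median log2 fold change -0.32). Without controls 1, 2 and 3 in turn, 5, 7 and 6 were lower, and the median ran from -0.52 without DMHCA sample 2 to -0.18 without control 3. Under the other alternatives, with no library left out, it ran from -0.37 to 0.02, so the lean to the lower side was not kept on every scale. With all samples, none of the 8 passed an unadjusted p of 0.05 or lay apart from the controls. The exception, Vash1 (vasohibin), which endothelial cells make in response to VEGF, was at 2.22, 1.23 and 1.15 CPM in the controls and at 3.43 and 4.74 CPM with DMHCA, a log2 fold change of 1.41 (SE 0.53) with an adjusted p of 0.644 by edgeR, 0.173 by DESeq2 on the 5 samples and 0.0442 by DESeq2 on the 6 libraries. Its unadjusted p was 0.0341 with all samples and 0.0702 without control 3, where the log2 fold change was 1.24. Serpinf1 was at 40.9, 39.0 and 72.4 CPM against 39.6 and 31.2 CPM, and Angptl4 at 16.2, 11.6 and 73.1 CPM against 21.8 and 6.79 CPM, each with its highest value in control 3.

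Among 12 genes listed for mural cells, the pericytes and smooth muscle around vessels, 7 were higher and 5 lower (median 0.03), and 0 lay apart. The list takes in Pdgfb, a ligand gene rather than a marker of these cells. Without control 2 the counts were 9 higher and 3 lower (median 0.30), and without DMHCA library 3 they were 5 higher and 7 lower (median -0.02). Abcc9, a pericyte channel subunit, was at 31.4, 25.8 and 15.6 CPM in the controls, 24.2 CPM in the merged DMHCA sample and 106.9 CPM in DMHCA sample 2, where Notch3, at 55.2 to 157 CPM in controls and 107 CPM in the merged sample, was also highest at 209.8 CPM. Myh11, of smooth muscle, ran from 4.90 to 40.2 CPM in controls and from 3.33 to 13.7 CPM with DMHCA, and Acta2 from 52.1 to 88.0 CPM and from 49.9 to 67.0 CPM. Of 6 lymphatic endothelial genes, 3 were higher and 3 lower (median -0.07), with overlap for all 6. The counts were 5 higher and 1 lower without control 3 (median 0.67) and 1 higher and 5 lower without control 1 (median -0.31). They were 2 higher and 4 lower without control 2 (median -0.30) and 4 higher and 2 lower without DMHCA sample 2 (median 0.37). Ccl21a, a chemokine of lymphatic and lymphoid stroma, ran from 0.212 CPM in control 2 to 132 CPM in control 3. Reln was at 250 CPM in DMHCA sample 2 and at 1.31 CPM in the merged sample, with controls between 5.51 and 57.5 CPM, and Prox1 and Pdpn overlapped with log2 fold changes of 0.22 and -0.20. Of 8 genes for leukocyte adhesion in venules, Madcam1 and Chst4 passed the filter on low counts only through the controls and are given by their counts alone. Of the other 6, 5 were lower on average, all but Sele (log2 fold change 0.02), and without control 3 they were 3 higher and 3 lower (median -0.03). Madcam1, the addressin of lymphoid and gut venules, held 11, 9 and 121 expected counts in the control libraries and 2, 1 and 0 in DMHCA libraries 1, 2 and 3. Chst4, which makes the sugar bound by L-selectin, held 19, 0 and 82 counts against 3, 0 and 0. Most of these counts came from control 3, the sample with the most B cell and T cell RNA, and the part of those cells was not tested.

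**Figure D5:**
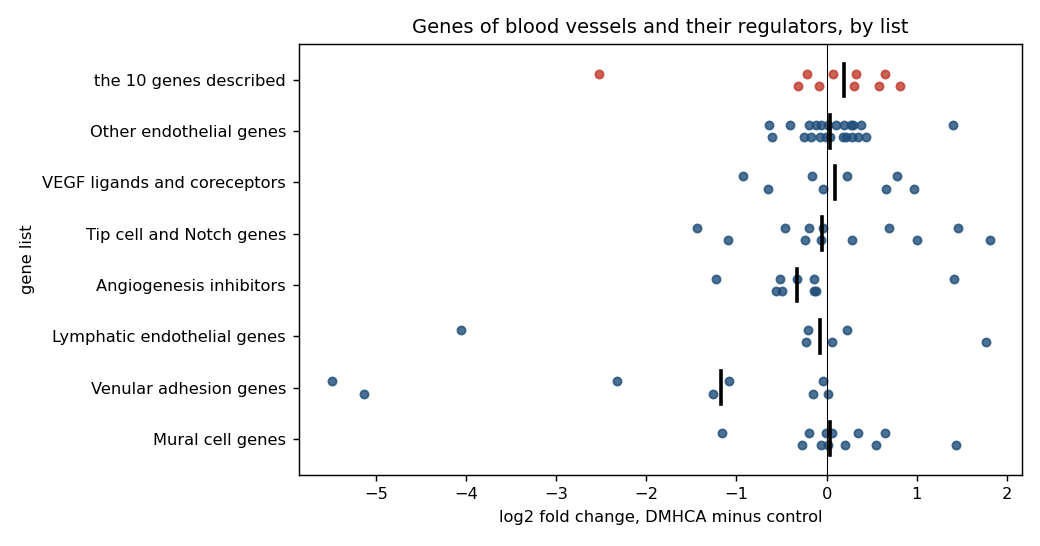
The log2 fold change (DMHCA minus control, edgeR) of the 10 genes (red) and of each gene in 7 further vascular lists (blue), with black bars at list medians. Medians lie between -0.32 and 0.19 except that of venular adhesion genes at -1.17, which takes in Madcam1 and Chst4, the 2 points below -5, whose DMHCA libraries hold at most 3 counts, and is -0.03 over the other 6 without control 3.

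The mean profile of the 7 receptors and surface markers other than Vwf was nearly flat, at -0.08, -0.04 and -0.15 in the controls and 0.08 and 0.19 with DMHCA on a centred log2 scale. The genes closest to it by root mean square difference over the 5 samples, among 13863 genes with enough counts, were Edc4 (0.0241 on the log2 scale), Grn, Nrf1, Ints13, Pdcd4, Lsg1, Fam98a, Ranbp3, Smad5 and Grpel2 (0.0416). None of these 10 is in an endothelial list, and 9 of the 10 were also among the closest over 6 libraries. Of the 23 other endothelial genes, 5 (21.7%) were among the closest 1000, which are 7.21% of the genes compared: Sox18, Mmrn2, Adgrl4, Clec14a and Plvap. Among the 10 genes described, Kdr was closest at rank 1196, and Vwf and Angpt1 were farthest at ranks 12184 and 13332. The 7 genes that form the profile thus all lay outside the closest 1000. A nearly flat profile lies close to genes that vary little, so the 21.7% does not show a shared endothelial pattern.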

How the data were processed

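RNA from 3 control and 3 DMHCA tumors was sequenced, and groups and replicate numbers were taken from the sample titles. Per the submitters' processing notes and the study's methods, the authors checked reads with FastQC 0.11.9, trimmed them with cutadapt 2.9 and counted them on mm10 with RSEM 1.3.1 on a Bowtie2 2.4.1 index, and used DESeq2 1.26 in R 3.6. The strand setting is not given in the sources used here. The authors deposited RSEM's expected counts, which are estimates without normalization, TPM, scaled to a fixed sum per library, and FPKM, which were not used. The deposited gene length is RSEM's mean over transcripts weighted by isoform share. Nothing in the labels says more of the mice behind each library, so p-values measure the spread between these samples.

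The expected counts were rounded. Libraries of a group were compared in pairs over genes with a mean of at least 100 counts, and 2 libraries were merged when their biological coefficient of variation was below 0.1 and no other pair came within 5 times of it. DMHCA libraries 1 and 3 met this, although 18.1% of their 13380 genes differed by chi-square at the 0.05 level, against 82.1% to 87.8% in other pairs. The groups were compared by edgeR 4.0.16 in R 4.3.3 (TMM, filterByExpr at its defaults of 10 counts and 15 in total, quasi-likelihood F-test, Benjamini-Hochberg adjustment). The test was checked on simulated counts of 5 samples. It called 0% of genes changed 2-fold, 8% of those changed 4-fold and 59% of those changed 8-fold. A lack of calls at this size therefore does not show a lack of change. Ratios used TPM and exact permutation tests in scipy 1.17.1. Alternatives were DESeq2 1.42.0, limma 3.58.1 on log2(TPM + 0.1) and log2(TPM + 1), other filters and size factors, the 6 libraries as separate samples with and without a replicate block, and each library left out.

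The 10 genes and the other lists were chosen with earlier results of these data known. All 10 were named, as were from each other vascular list the 2 genes with the smallest p in each direction, defining markers and the 10 genes closest in pattern. Erg, Mmrn2, Adgrl4, Vegfa, Dll4, Sox18, Clec14a and Plvap fall outside this rule and were named after their values were seen. Of the marker genes chosen, 1 is not reported here. The medians of the log2 fold changes of other marker lists were -0.09 for macrophages, -0.54 for fibroblasts, -0.69 for platelets, 0.16 for epithelium, -0.81 for red blood cells and -0.61 for skeletal muscle. Erbb2 was at 439, 191 and 210 TPM in controls and 415 and 635 TPM with DMHCA. Coordinates are those of GENCODE mouse release 21, which held 55144 of the 55385 genes. Promoter windows are RefSeq's. The 3 printed windows were cut where needed to end before the first exon in GENCODE, and motifs were counted in the whole 250 bases of each window.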

Additional observations from a re-analysis of the deposited data

How the results depend on the processing

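Of the 10 genes, 7 (Cdh5, Kdr, Tie1 and Angpt2 higher; Angpt1, Tek and Emcn lower) kept their sign under every alternative run. The sign of Vwf reversed with genes of at least 100 counts (-0.0035), with limma (-0.54 and -0.50) and without control 2 (-0.37). That of Pecam1 reversed with limma (0.12 and 0.11), without control 3 (0.18) and without DMHCA 2 (0.0077), and that of Flt1 without DMHCA 2 (-0.054). With a library left out the ranges were -0.24 to 0.18 for Pecam1, -0.37 to 0.51 for Vwf and -0.054 to 0.55 for Flt1. The cause was not tested.

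Genes with an adjusted p under 0.05 numbered 0 by edgeR, 244 by DESeq2 on 5 samples, 846 by DESeq2 on 6 libraries and 16 with no filter. At an unadjusted p they numbered 1478, 2370 and 3652 with the DESeq2 fits, 2912 by edgeR on 6 libraries, 2808 with no filter, and 918 to 1800 with a library left out. Of the 10 genes, 2 had an unadjusted p under 0.05, against 4 by DESeq2 and by edgeR on 6 libraries, 1 by limma on log2(TPM + 0.1) and 0 to 2 with a library left out, and 1 had an adjusted p under 0.05 by DESeq2 on 6 libraries. Of the 118 other listed genes, 0 were called by edgeR, 8 and 17 by DESeq2 on 5 samples and on 6 libraries and 2 with no filter. At an unadjusted p there were 18, 28 by DESeq2 on 6 libraries, 12 by limma on log2(TPM + 0.1) and 10 to 24 with a library left out. The DESeq2 counts and the 18 take in Madcam1, which passed the filter only through the controls, so its share in them is no support. They also take in Lep, which was at 0 in a DMHCA library. On log2(TPM + 1) the adipocyte median was -2.52 and the B cell median -2.43. With a library left out, the venular median ran from -1.55 over 8 genes (without control 2) to -0.034 over 6 genes (without control 3). Madcam1 and Chst4 did not pass the filter in the latter fit, so the range mixes 2 sets of genes. The macrophage median ran from -0.26 to 0.25.

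The log2 ratio of Vwf to other endothelial genes was -0.85 in TPM and 0.26 in counts. With a library left out, Flt1 to Kdr ran from -0.22 to 0.075, Emcn to other endothelial genes from -0.57 to 0.0012, Kdr from -0.0069 to 0.45 and Flt1 from -0.19 to 0.52. The length difference of Flt1 was -1.21 bases, 0.704 in effective length, and -99.9 to 97.5 with a library left out, that of Emcn -58.3 to 33.6, of Tek -29.8 to 90.3 and of Angpt2 -90.1 to 366 bases.

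Same-numbered control and DMHCA libraries deviated together with correlations of -0.0585, 0.342 and 0.359, so 2 of 3 pairs passed 0.1 and the numbers were not taken to pair the samples. DMHCA library 1 correlated best with control 3. With the replicate block edgeR gave 0 genes at an adjusted p and 3207 at an unadjusted p under 0.05.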
